A study of Mus musculus with 10 samples.

Results

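The transcripts followed here encode the transcriptional end of the Hippo pathway during the reprogramming of mouse fibroblasts toward pluripotency. The set holds 10 genes, chosen by symbol from the 45706 genes in the deposited tables: the coactivators Yap1 and Wwtr1, the DNA-binding partners Tead1, Tead2, Tead3 and Tead4, and 4 genes known as targets of the pathway, Ctgf, Cyr61, Amotl2 and Lats2. All 10 passed the filter on low counts. Poly(A) RNA was sequenced from 5 groups with 2 libraries each. Embryonic fibroblasts (MEF), which carry an inducible cassette of Oct4, Klf4, Sox2 and Myc in the Col1a1 locus and the transactivator M2rtTA in the ROSA26 locus, were kept in fibroblast medium without doxycycline and were not sorted. Cells of that genotype were induced with doxycycline (1 µg/ml) and ascorbic acid (50 µg/ml) in stem cell medium and taken on day 3 unsorted, and on days 6 and 9 after sorting for the surface epitope SSEA1. Embryonic stem cells (ESC) of the line V6.5 were grown on irradiated feeder cells and not sorted. The strain label of every library is C57BL/6 x 129, and all libraries carry 1 batch label. Day 3 against MEF therefore combines induction, ascorbic acid and a change of medium, and day 6 or day 9 against day 3 combines time with the sort. MEF and the induced libraries also differed in sex-linked genes, as given below, so they may not come from the same donor. The design text speaks of biological replicates, but nothing says that the 2 libraries of a group came from separate animals or cultures, so p-values measure the spread between these libraries, which may be technical.

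In the Hippo pathway, a kinase cascade ending in Lats1 and Lats2 phosphorylates the coactivators YAP and TAZ (the product of Wwtr1), which holds them in the cytoplasm or leads to their breakdown. When the cascade is less active, as in spread cells on a stiff substrate, YAP and TAZ enter the nucleus and bind TEAD proteins, which carry them to DNA. Fibroblasts in culture are known for high YAP and TAZ activity, and these proteins are controlled largely by phosphorylation and location, which RNA levels do not measure.

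TEAD proteins bind a short core, GGAATG, or CATTCC on the opposite strand. The RefSeq promoter table (GRCm38.p6) had an entry for 7 of the 10 genes, and none for Ctgf, Tead1 and Tead4; Cyr61 was matched under its RefSeq symbol Ccn1. In the 250 bases before the start site, the core (either strand) was found in 5 of these 7 genes: Cyr61, Wwtr1, Tead3, Amotl2 and Yap1. The windows of Tead2 and Lats2 did not hold these letters. The Lats2 windows lie inside the GENCODE gene (57689662 to 57758388, minus strand), so the bases before its outermost start were not read. For comparison, 14.4% of the 27025 genes in the table held the core in at least 1 such window, and 12.6% of 32851 windows did. The AP-1 motif TGANTCA (read on both strands; its last letters, CA, can begin a CATTCC core) was in no window of the 7 genes and in 6.75% of all windows. The 4 sequences below belong to genes that held the core and were also called lower at day 6 than at day 3, as defined in the results that follow. They were thus chosen for having a core. Lats2 was lower at day 6 too, short of a call, and held no core in the windows read. Yap1 held the core and was not called, and Ctgf was called lower but had no entry. A link between the core and the change at day 6 was not tested. The sequences are printed from 5′ to 3′ on the gene's strand, with the TEAD core in capitals. A match describes the letters only and was not tested for binding. The core began 103 bases before the start site in Cyr61, 136 in Wwtr1, 182 in Tead3 and 65 in Amotl2, counted in the outermost window of each gene. Tead3 had 3 windows, of which the second held cores beginning 123 and 114 bases before its own start site and the third held none. The second window of Wwtr1 overlaps the first and holds the same core, 170 bases before its start site. For Tead3, bases that lie in an annotated exon were left out, which leaves 238 bases, and for Amotl2, where the window lies in an annotated 5′ exon, 30 bases around the core are given.
Cyr61 (chr3:145649986-145650235, minus strand): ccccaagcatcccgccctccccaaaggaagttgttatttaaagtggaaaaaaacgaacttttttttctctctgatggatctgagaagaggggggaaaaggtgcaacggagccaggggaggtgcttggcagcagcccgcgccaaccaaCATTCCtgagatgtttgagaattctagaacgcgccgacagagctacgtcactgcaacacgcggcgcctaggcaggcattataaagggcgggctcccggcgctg
Wwtr1 (chr3:57575911-57576160, minus strand): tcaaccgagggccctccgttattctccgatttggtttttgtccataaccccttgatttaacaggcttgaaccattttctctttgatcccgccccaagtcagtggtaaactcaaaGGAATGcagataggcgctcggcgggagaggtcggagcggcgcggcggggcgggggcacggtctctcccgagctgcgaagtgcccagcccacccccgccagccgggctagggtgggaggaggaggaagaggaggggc
Tead3 (chr17:28350818-28351055, minus strand): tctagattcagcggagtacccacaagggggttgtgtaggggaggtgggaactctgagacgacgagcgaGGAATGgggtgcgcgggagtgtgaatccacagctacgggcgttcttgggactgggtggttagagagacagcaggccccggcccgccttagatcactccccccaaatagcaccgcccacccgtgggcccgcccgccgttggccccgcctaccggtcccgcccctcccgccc
Amotl2 (chr9:102717727-102717756, plus strand): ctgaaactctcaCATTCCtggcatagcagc

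Libraries held 29585876 to 38275024 estimated reads. Levels are given as CPM (reads scaled to the library total, with TMM factors between libraries), which compare 1 gene between stages; levels of different genes are compared only in TPM, the matching unit that divides by transcript length. A gene was called higher or lower at a Benjamini-Hochberg adjusted p under 0.05 in edgeR's quasi-likelihood test and at least a 2-fold difference. Markers of fibroblasts moved strongly with the stages: 15 fibroblast genes summed to 52932 to 54446 CPM in MEF, 5473 to 5482 at day 3, 489.8 to 501 at day 6, 161 to 171 at day 9 and 4649 to 4804 in ESC. The defining collagens Col1a1 and Col1a2 were not at 0 at any stage, whereas Lum had no read at day 9. In ESC, Col1a1 stood at 1406 and 1380 CPM and Postn at 396 and 421 CPM, against 5.14 and 6.21 CPM and 0.836 and 1.06 CPM at day 9. Other marker lists moved as well. The 6 epithelial markers summed to 13.8 to 16.1 CPM in MEF, 1182 to 1238 at day 9 and 548 to 551 in ESC, and the 6 keratinocyte markers to 11.9 to 12.1 in MEF and 90.0 to 91.9 at day 9. Most of that day 9 keratinocyte sum was Sfn, Krt6a and Ly6d, with means of 44.4, 26.3 and 17.0 CPM. Krt14 had means of 2.03 CPM in MEF and 2.14 at day 9, and Krt5 and Krt16 had 0.517 and 0.546 at day 9. The 5 endothelial markers summed to 9.05 to 9.64 CPM in MEF and 129 to 132 at day 3. Most of the day 3 sum was Tek, with means of 2.33 CPM in MEF and 121 at day 3. Emcn went the other way, from a mean of 4.15 to 0.043 CPM, and of the 5 genes 2 were called higher and 1 lower. The 6 macrophage markers summed to 4.59 to 6.11 CPM at day 6 and 81.3 to 84.4 in ESC. Most of the ESC sum was Lyz2 and Cd68, with means of 50.1 and 25.5 CPM. Ptprc, Adgre1, Csf1r and Tyrobp had ESC means of 0.838, 1.42, 2.93 and 2.07 CPM. The part of these cell types in the results was not tested. The 7 pluripotency markers summed to 1.96 to 2.41 CPM in MEF, 345 to 348 at day 9 and 3880 to 3964 in ESC. Sex-linked genes also differed: Xist was at 0.739 and 0.793 CPM in MEF against 929.6 and 1090 at day 3, and Ddx3y at 90.6 and 86.4 CPM against 0.0538 and 0.0887. ESC differed from day 9 in them too, with Xist at 11.3 and 9 CPM in ESC against 1103 and 1047 at day 9, and Ddx3y at 26.1 and 26.8 CPM against 0.0964 and 0.101. A difference between induced cells and MEF or ESC cannot be told apart from a difference in the sex or donor of the cells, which these levels may mark. In bulk RNA, fewer cells that express a gene and less of its RNA per cell cannot be told apart either.

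Most of the 10 genes were lower in pluripotent cells than in fibroblasts, but they did not move as a block. Between MEF and day 3, 2 members (Tead4 and Ctgf) were called higher and 1 (Tead3) lower, where 14.6% of all genes tested were called higher and 14.5% lower. At day 6 against day 3, 5 members were called lower (Wwtr1, Tead3, Ctgf, Cyr61 and Amotl2) and none higher, beside 10.2% and 9.26% of all genes. No member was called at day 9 against day 6, where 5.18% of all genes were called higher and 2.68% lower. By adjusted p alone, 3 members were higher and 5 lower. The share of all genes at adjusted p alone was not counted, so these counts have no baseline. ESC against day 9 gave 1 lower call, Lats2, and none higher, beside 14.3% and 18.6% of all genes. ESC against MEF gave 6 lower calls (Wwtr1, Tead1, Tead3, Cyr61, Amotl2 and Lats2) and 1 higher (Tead4), beside 20.6% and 25.5%. The median log2 difference of the 10 genes was -0.15, -0.92, -0.12, -0.28 and -1.38 in these comparisons in turn, where the medians of all 20165 genes tested were 0.08, 0.03, 0, 0 and 0.1. The share of members called lower was thus above that of all genes at day 6 against day 3 and in ESC against MEF, and close to it or below it in the others.

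**Figure D1:**
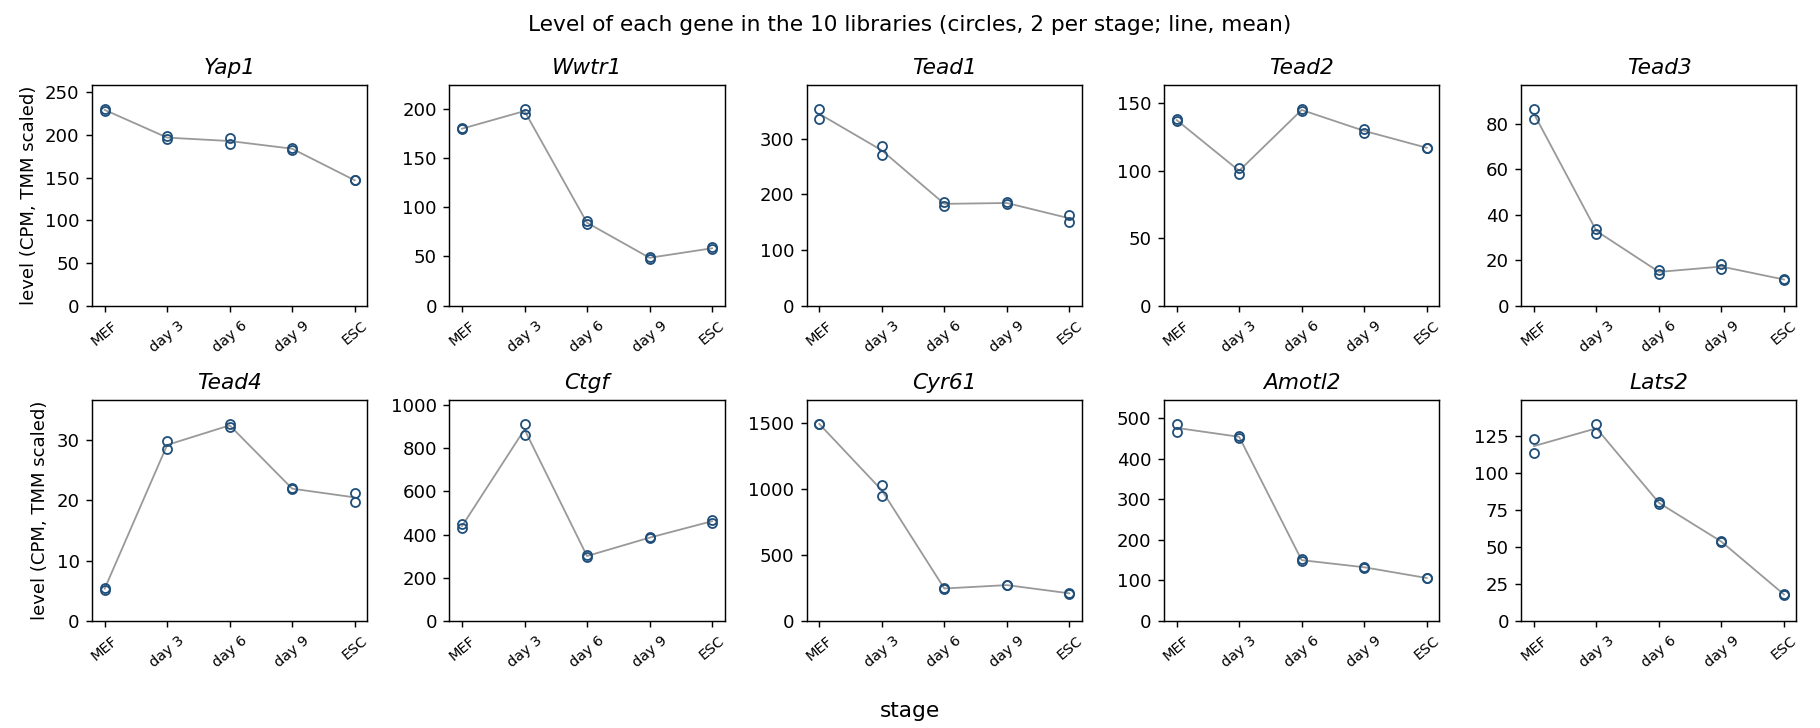
Level of each of the 10 genes (CPM, linear axis from 0) in MEF, at day 3, day 6 and day 9 and in ESC; circles are the 2 libraries of a stage and the line joins their means. Cyr61, Amotl2 and Wwtr1 are lower from day 6 on, Ctgf peaks at day 3, Tead4 is lowest in MEF, and Yap1 and Tead2 span less than 2-fold.

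Yap1 and Wwtr1 encode the paired coactivators YAP and TAZ, and their transcripts followed different courses. Yap1 (ENSMUSG00000053110.11, GRCm38 chromosome 9, 7931999 to 8004596, minus strand) was at 231 and 228 CPM in MEF, 199 and 195 at day 3, 197 and 189 at day 6, 183 and 185 at day 9, and 147 in both ESC libraries. It was highest in MEF and lowest in ESC, the day 3 and day 6 libraries overlapped, and no comparison reached 2-fold. The largest difference, ESC against MEF, was -0.64 on the log2 scale (SE 0.03), a 1.56-fold lower level with an edgeR adjusted p of 1.6e-10. In the order MEF, day 3, day 6, day 9 and ESC, neighbours from day 3 to day 9 did not differ beyond their spread (edgeR adjusted p = 0.51 for day 3 and day 6, and 0.1 for day 6 and day 9), and scaling by library size alone turned the sign of day 6 against day 3. Over the longer span, day 9 was slightly below day 3 (log2 -0.1, SE 0.03, edgeR adjusted p = 0.014).

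Wwtr1 (ENSMUSG00000027803.12, chromosome 3, 57455649 to 57575910, minus strand) stood at 180.2 and 179 CPM in MEF, 195 and 200.0 at day 3, 85.6 and 82.9 at day 6, 49.7 and 47.6 at day 9, and 57.1 and 59.5 in ESC. MEF and day 3 were high, day 6 was intermediate, day 9 and ESC were low, and no 2 stages overlapped. It fell 2.35-fold from day 3 to day 6 (log2 -1.23, SE 0.04, edgeR adjusted p = 1.8e-12). The further step to day 9 was -0.79 (SE 0.04), short of 2-fold, and ESC stood 1.2-fold above day 9 (log2 0.26, SE 0.04, adjusted p = 5.6e-05 in edgeR). ESC was 3.07-fold below MEF (log2 -1.62, SE 0.04, edgeR adjusted p = 3.5e-14). Day 9 was the lowest stage, at 27.1% of the MEF mean.

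Per length, Yap1 exceeded Wwtr1 at every stage, and the ratio was largest at day 9. On TPM from transcript models of at least 1000 bases, the ratio of Yap1 to Wwtr1 was 1.74 and 1.76 in MEF, 1.18 and 1.23 at day 3, 3.01 and 2.92 at day 6, 4.72 and 4.77 at day 9, and 3.18 and 3.14 in ESC. It was lowest at day 3 and highest at day 9, and only day 6 and ESC stood close to each other. On TPM over all models the means were 2.04 ± 0.228, 1.26 ± 0.0875, 3.21 ± 0.405, 5.69 ± 0.182 and 3.66 ± 0.463 (SD, n = 2 each), in the same order of stages. These ratios are given as a description, with no test.

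The Tead genes encode the DNA-binding part of the complex, and each of the 4 had its own course. Tead1 (ENSMUSG00000055320.14, chromosome 7, 112679318 to 112906807, plus strand) was at 354 and 335 CPM in MEF, 271 and 287 at day 3, 186 and 179.9 at day 6, 186 and 183 at day 9, and 163 and 151 in ESC. MEF was highest, and days 6 and 9 overlapped (edgeR adjusted p = 0.85). No single step reached 2-fold, but ESC was 2.19-fold below MEF (log2 -1.13, SE 0.04, edgeR adjusted p = 6.2e-12), a call lost when libraries were scaled by size alone (log2 -0.79).

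Tead2 (ENSMUSG00000030796.13, chromosome 7, 45215753 to 45233644, plus strand) was at 137 and 138 CPM in MEF, 102 and 97.9 at day 3, 146 and 144 at day 6, 131 and 128 at day 9, and 117 in both ESC libraries. It dipped at day 3, where both libraries were below all others, and its highest stage stood 1.45-fold above its lowest. No difference reached 2-fold. The step from day 3 to day 6 was 0.53 (SE 0.03, edgeR adjusted p = 8.2e-09), and ESC against MEF was -0.24 (SE 0.03), which became 0.10 with library size scaling.

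Tead3 (ENSMUSG00000002249.15, chromosome 17, 28331671 to 28350817, minus strand) was at 86.8 and 82.2 CPM in MEF, 31.8 and 34 at day 3, 14 and 15.8 at day 6, 16.3 and 18.2 at day 9, and 11.3 and 11.8 in ESC. Its MEF libraries were far above the rest, and the levels from day 6 on lay within 11.3 to 18.2 CPM. It fell 2.56-fold from MEF to day 3 (log2 -1.36, SE 0.06, edgeR adjusted p = 1e-10) and 2.21-fold more from day 3 to day 6 (log2 -1.14, SE 0.07, adjusted p = 7.3e-09 in edgeR). In ESC it was 7.32-fold below MEF (log2 -2.87, SE 0.07, edgeR adjusted p = 5.8e-14).

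Tead4 (ENSMUSG00000030353.13, chromosome 6, 128224288 to 128300823, minus strand), known for its role in the trophectoderm of the early embryo, went the other way. It was at 5.5 and 5.21 CPM in MEF, 28.5 and 29.9 at day 3, 32.2 and 32.7 at day 6, 21.9 and 22 at day 9, and 19.7 and 21.3 in ESC. Both MEF libraries were below every other library. It rose 5.45-fold from MEF to day 3 (log2 2.45, SE 0.07, edgeR adjusted p = 8.5e-13), and ESC was 3.83-fold above MEF (log2 1.94, SE 0.08, adjusted p = 9e-12 in edgeR). Day 9 and ESC did not differ beyond their spread (log2 -0.10, edgeR adjusted p = 0.16). Of 2 known trophectoderm targets of TEAD4, Cdx2 had 0 reads in the MEF and induced libraries and 4 and 3 in ESC, which is too few to test. Gata3 ranged from 0.859 to 1.88 CPM over all libraries and was called in no comparison.

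As shares of the summed Tead transcripts, Tead2 held more from day 6 on than in MEF or at day 3. On TPM from models of at least 1000 bases, Tead2 held 40.5% and 42.1% in MEF, 42.0% and 39.5% at day 3, 58.3% and 58.2% at day 6, 59.3% and 57.8% at day 9, and 60.1% and 60.0% in ESC. MEF and day 3 overlapped in this share, and all later libraries were above both. Tead1 held 31.3% ± 1.27 in MEF and 32.0% ± 1.33 at day 3, and then 20.8% ± 0.49, 22.7% ± 0.294 and 22.4% ± 0.906 at day 6, day 9 and in ESC (SD, n = 2 each). Tead3 went from 25.5% ± 0.116 in MEF to 13.1% ± 0.327 at day 3 and 5.58% ± 0.48 at day 6, while Tead4 went from 1.87% ± 0.0518 to 14.1% ± 0.103 and 15.4% ± 0.104 (SD, n = 2 each). On this sum the mean share of Tead4 was above that of Tead3 from day 3 on, at day 9 by 11.4% to 7.36% and in ESC by 12% to 5.63%, an order that turns when all models are counted.

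Those shares depend on which transcript models are counted. Over all models, Tead2 held 77.1% ± 3.66 of the summed Tead TPM in MEF and 90.2% ± 0.89 in ESC (SD, n = 2 each), Tead1 held 7.39% and 4.42%, and Tead4 held 0.434% and 2.18%. Tead3 held more than Tead4 at each stage on this sum, with means of 8.32% and 3.37% at day 3, 2.9% and 2.82% at day 6, 3.45% and 2.29% at day 9, and 3.24% against 2.18% in ESC. A Tead2 model of 272 bases carried, in that sum, 33.2% to 45.7% of the gene's TPM from 3.07% to 5.26% of its reads, whereas a model of 1948 bases with 61.6% to 65.1% of the reads carried 10.2% to 13.0% of the TPM. A Tead3 model of 347 bases likewise carried 45.0% to 67.4% of that gene's TPM from 3.67% to 8.66% of its reads. Under both sums the Tead2 share was larger from day 6 on than in MEF, and Tead2 was the largest of the 4.

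**Figure D2:**
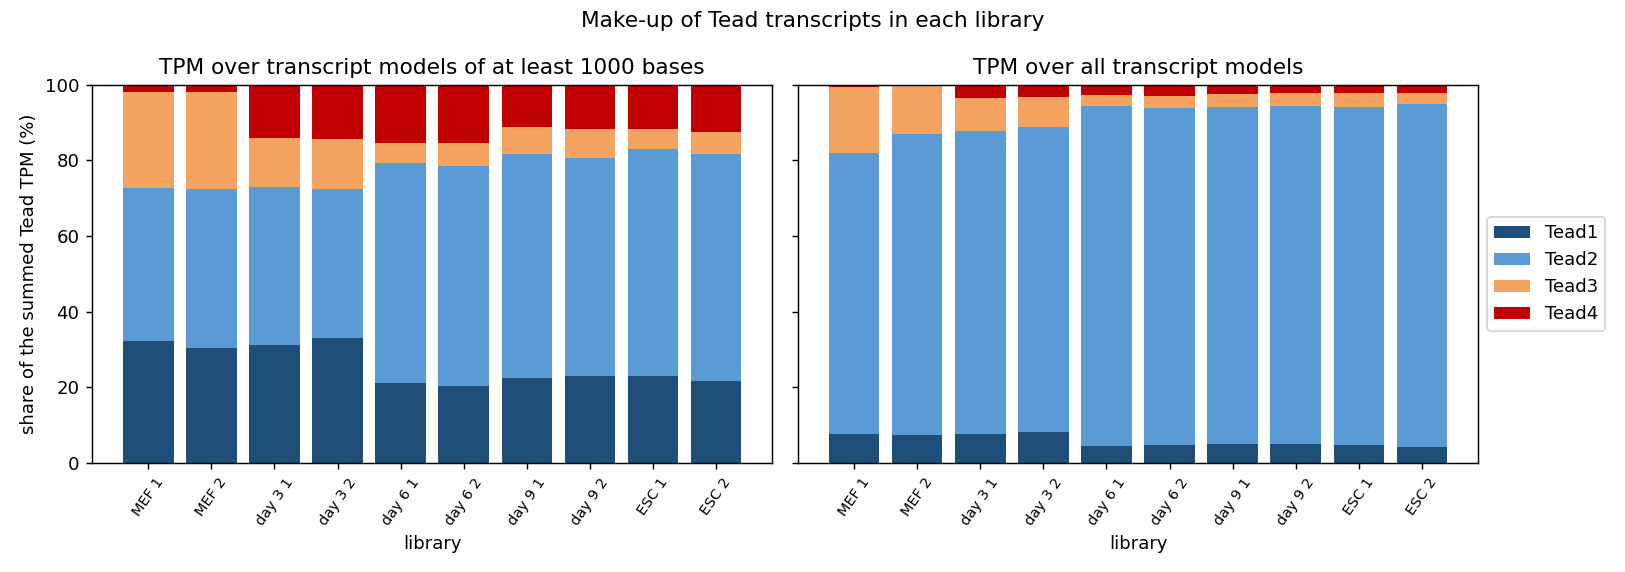
Share of the summed Tead TPM (percent, stacked to 100) held by Tead1 to Tead4 in each library, from transcript models of at least 1000 bases (left) and from all models (right). On the left Tead2 goes from 40.5% and 42.1% in MEF to 60.1% and 60.0% in ESC and Tead3 shrinks; on the right Tead2 is the bulk of every bar.

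Ctgf and Cyr61 encode secreted matricellular proteins and are the targets most often used to read YAP and TAZ activity, yet they parted at day 3. Ctgf (ENSMUSG00000019997.9, chromosome 10, 24595442 to 24598683, plus strand) was at 429 and 449 CPM in MEF, 912 and 860.3 at day 3, 303 and 298 at day 6, 383 and 388 at day 9, and 454 and 469 in ESC. Day 3 stood above all other libraries and day 6 below all, while ESC was just above MEF. The gain from MEF to day 3 was 2.02-fold (log2 1.01, SE 0.04, edgeR adjusted p = 5.9e-12), at the edge of the 2-fold threshold. It was 0.89 with DESeq2, 0.97 without the first day 3 library and 0.98 without the first MEF library, so that the call ended in each. The fall from day 3 to day 6 was 2.95-fold (log2 -1.56, SE 0.04, edgeR adjusted p = 1.6e-13). ESC and MEF did not differ beyond their spread (log2 0.07, edgeR adjusted p = 0.085), and DESeq2 gave -0.0049.

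Cyr61 (ENSMUSG00000028195.4, chromosome 3, 145646976 to 145649981, minus strand) had the highest TPM of the 4 target genes in MEF, 390.2 and 381.0. Its CPM was 1492 and 1490 in MEF, 1032 and 947 at day 3, 241 and 251 at day 6, 270.4 and 273 at day 9, and 208 and 211 in ESC. MEF was highest, day 3 intermediate, and all later libraries were at most 273 CPM. The step from MEF to day 3 was -0.59 (SE 0.04), short of 2-fold, and the fall from day 3 to day 6 was 4.02-fold (log2 -2.01, SE 0.04, edgeR adjusted p = 3e-14). ESC was 7.11-fold below MEF (log2 -2.83, SE 0.04, edgeR adjusted p = 3e-16). Thus in ESC, Ctgf was at 105% of its MEF mean and Cyr61 at 14.1%.

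Amotl2 and Lats2 are targets that also act on the pathway: angiomotin-like 2 binds YAP and TAZ, and LATS2 is the kinase that phosphorylates them. Amotl2 (ENSMUSG00000032531.13, chromosome 9, 102716672 to 102733418, plus strand) was at 486 and 466 CPM in MEF, 457 and 451 at day 3, 148 and 152 at day 6, 131 and 134 at day 9, and 105 and 107 in ESC. MEF and day 3 were both high and close to each other (log2 -0.07, edgeR adjusted p = 0.07, and 0.14 with library size scaling). From day 3 to day 6 it fell 3.02-fold (log2 -1.60, SE 0.03, edgeR adjusted p = 4.6e-14), and ESC was 4.49-fold below MEF (log2 -2.17, SE 0.03, adjusted p = 6.8e-16 in edgeR).

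Lats2 (ENSMUSG00000021959.13, chromosome 14, 57689662 to 57758388, minus strand) was at 123 and 113 CPM in MEF, 127 and 133 at day 3, 80.2 and 79.2 at day 6, 53.7 and 53.3 at day 9, and 18.1 and 17.7 in ESC. No 2 stages overlapped, and each stage after day 3 was lower than the one before. No step within the induction reached 2-fold, with -0.70 (SE 0.04) at day 6 against day 3 and -0.58 (SE 0.05) at day 9 against day 6. Day 9 was 2.43-fold below day 3 (log2 -1.28, SE 0.04, edgeR adjusted p = 5.8e-12). ESC was a further 2.99-fold below day 9 (log2 -1.58, SE 0.05, edgeR adjusted p = 4.4e-12), the 1 member call between them, and 6.61-fold below MEF (log2 -2.72, SE 0.05).

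For Lats2 the direction of the first step depended on the unit. Its TPM over all models was 62.3 and 63.0 in MEF and 31.0 and 44.0 at day 3. The difference was -0.75 in limma on log2(TPM + 1), against 0.14 (SE 0.04) from counts. A model of 219 bases carried 54.4% to 80.1% of the TPM from 0.386% to 1.24% of the reads, while the model of 5191 bases held 89.6% to 95.1% of the reads. With models of at least 1000 bases only, the TPM was 11 and 10 in MEF, 11.6 and 12.6 at day 3, 7.24 and 7.20 at day 6, 4.57 and 4.54 at day 9, and 1.74 and 1.65 in ESC, the same order as the counts.

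**Figure D3:**
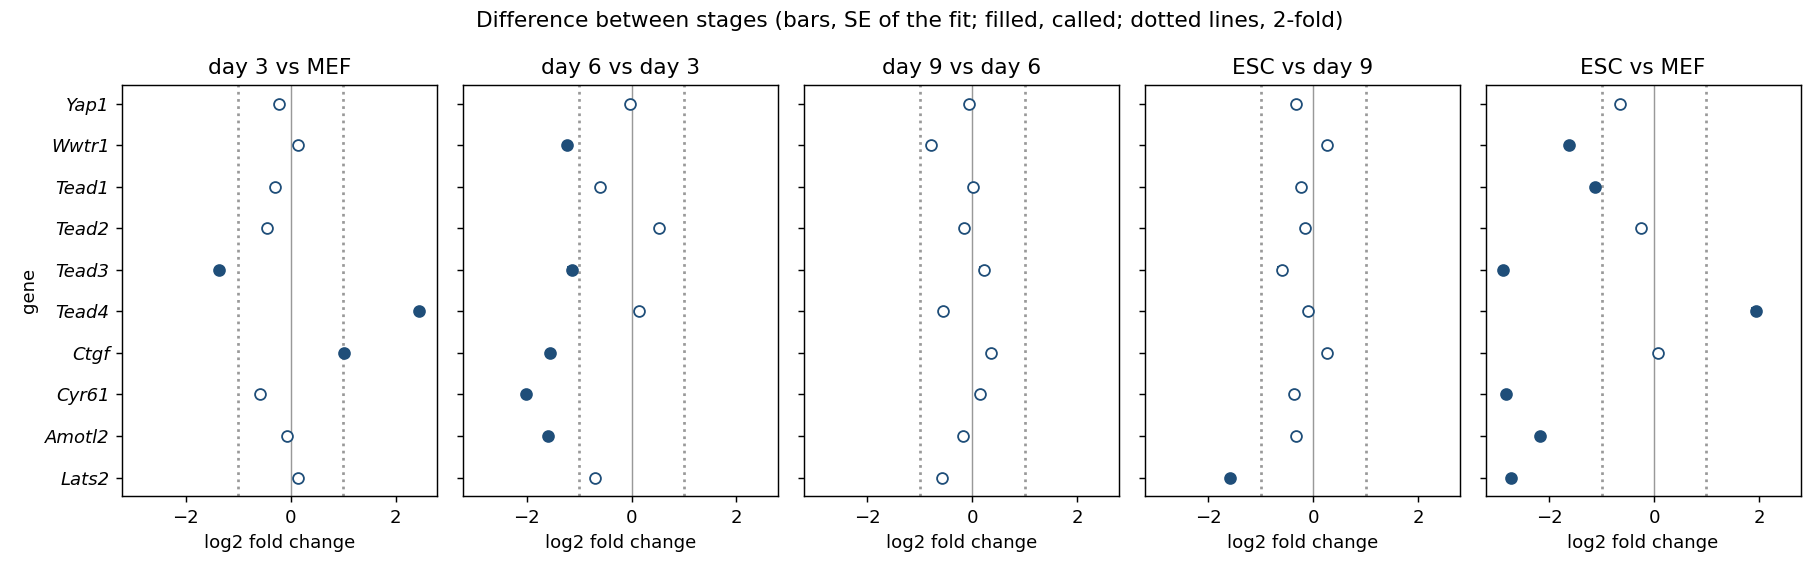
log2 fold change of each gene in 5 comparisons from edgeR, with bars for the SE (smaller than the symbol for most points); filled symbols were called and dotted lines mark 2-fold. Day 6 against day 3 has 5 filled symbols on the left and day 9 against day 6 has none, while ESC against MEF has 6 on the left and Tead4 on the right.

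Across all stages, the size of change separated the members. Tead3 (7.33-fold between its highest and lowest stage), Lats2 (7.27), Cyr61 (7.11) and Tead4 (6.05) varied most, followed by Amotl2 (4.49), Wwtr1 (4.06), Ctgf (2.95), Tead1 (2.19), Yap1 (1.56) and Tead2 (1.45). Day 9 against MEF, which leaves out the ESC libraries, gave 5 lower calls (Wwtr1, Tead3, Cyr61, Amotl2 and Lats2) and 1 higher (Tead4), where 19.8% of all genes were called lower and 24.1% higher. Day 9 against day 3, which leaves out the MEF libraries and their difference in sex-linked genes, gave 5 lower calls (Wwtr1, Ctgf, Cyr61, Amotl2 and Lats2) and none higher, beside 13.3% and 13.5% of all genes. Time and the sort for SSEA1 cannot be told apart in it.

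The members kept more of their MEF level than the fibroblast markers did. Those markers were chosen for being high in fibroblasts, so this comparison could hardly come out otherwise. At day 3 the 10 genes stood at 39.0% to 545% of MEF with a median of 90.5%, and the 15 fibroblast markers at 0.352% to 56.6% with a median of 8.19%. At day 9 the medians were 49.5% and 0.306%, and in ESC 39.0% and 8.37%. The 18 other YAP and TAZ targets had medians of 28.9% at day 9 and 34.5% in ESC. Beside all genes tested, the members were lower. Their median log2 difference from MEF was -1.02 at day 9 and -1.38 in ESC, where all genes had 0.19 and 0.1. In ESC the level relative to MEF was 13.6% for Tead3, 14.1% for Cyr61, 15.1% for Lats2, 22.3% for Amotl2, 32.5% for Wwtr1, 45.6% for Tead1, 64.0% for Yap1, 84.8% for Tead2, 105% for Ctgf and 383% for Tead4. The fibroblast markers in ESC spanned 1.11% to 14.5%, so Tead3 and Cyr61 lay inside that range and the other 8 above it. The ESC grew on feeder cells, and the part of feeder RNA in these levels was not tested. The 5 smooth muscle markers, another cell type that can express Ctgf and Cyr61, stood at 12% to 69.9% of MEF in ESC (1120 to 1194 CPM summed) against 0.13% to 9.95% at day 9 (177 to 189 CPM summed).

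**Figure D4:**
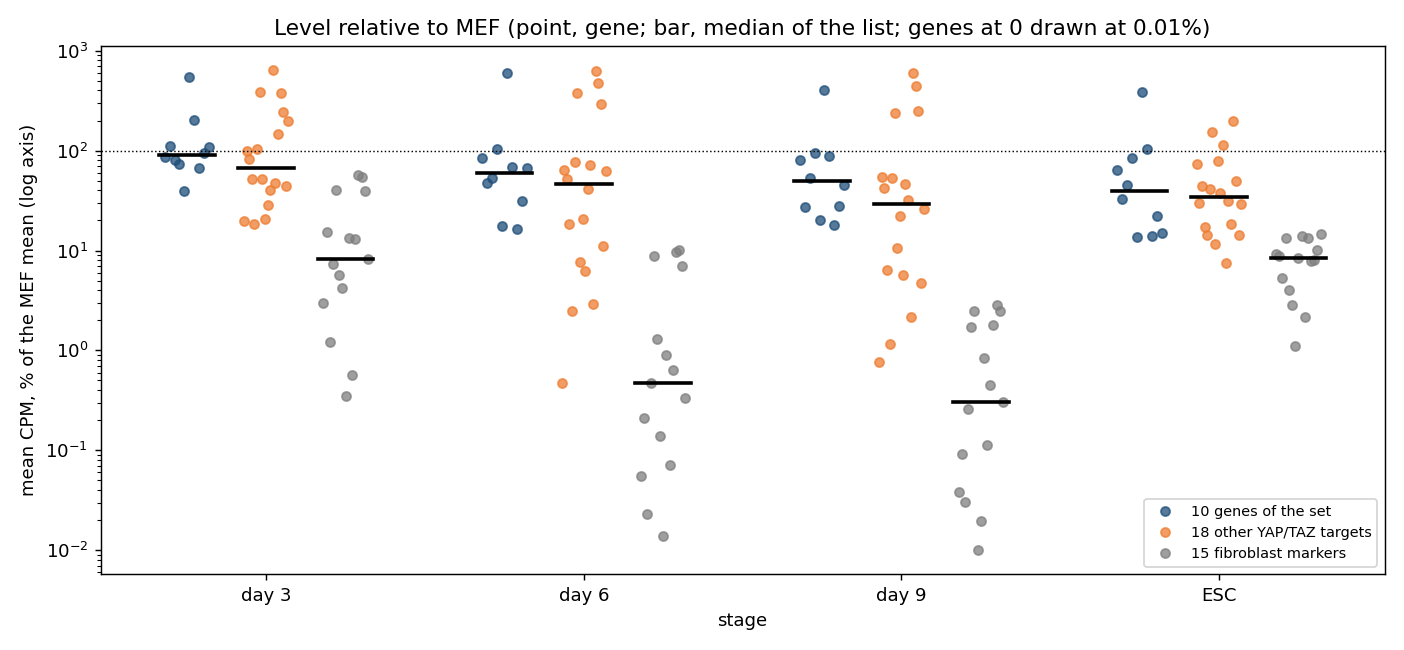
Mean CPM as a percentage of the MEF mean (log axis) at day 3, day 6, day 9 and in ESC, for the 10 genes, 18 other YAP and TAZ targets and 15 fibroblast markers; each point is a gene, bars are medians and the dotted line is 100%. The fibroblast markers have a median of 0.306% at day 9 and stand at 8.37% in ESC, while the medians of the 10 genes are 49.5% and 39.0%.

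Counts for the other pathway lists can be read against the shares of all genes given above for each comparison. Of the 18 other known YAP and TAZ targets, all of which were tested, 7 were called lower and 5 higher at day 3 against MEF. At day 6 against day 3, 9 were called lower and 1 higher, at day 9 against day 6, 5 lower and none higher, and in ESC against MEF, 12 lower and none higher. Igfbp3, a secreted binder of insulin-like growth factors, had the largest rise at day 3, from 224 and 222 CPM to 1468 and 1397 (log2 2.68, SE 0.04, edgeR adjusted p = 2.3e-16), and like Ctgf it was then lower, at 158 and 159.5 CPM on day 6. Ccdc80, an extracellular matrix protein, fell from 384 and 383 to 69.7 and 71.4 CPM over the same step (log2 -2.44, SE 0.04). Myof, a membrane repair protein, had the largest fall at day 6 among targets that reached 20 CPM, from 204 and 213 to 12.9 and 12.7 CPM (log2 -4.03, SE 0.05, edgeR adjusted p = 2e-16). Nt5e, the ectonucleotidase CD73, was the 1 target called higher at day 6, from 17.8 and 18.6 to 78.5 and 77.6 CPM (log2 2.10, SE 0.05), and stood at 2.12 and 2.43 CPM in ESC. Axl, a receptor tyrosine kinase, had the largest fall from day 6 to day 9, from 163 and 166 to 55.8 and 58.6 CPM (log2 -1.52, SE 0.04). The median log2 difference of the list was -0.61, -1.08, -0.27 and -1.54 in these 4 comparisons.

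Between day 9 and ESC, 8 of the other targets were called higher in ESC and 4 lower, with a list median of 0.13. The members gave 0 and 1 in this comparison, and no test compared the 2 lists. Ankrd1, a nuclear ankyrin-repeat protein and a commonly used YAP target, had the largest rise. It was at 65.5 and 66.4 CPM in MEF, 13.4 and 12.7 at day 3, 0.323 and 0.302 at day 6, 0.482 and 0.53 at day 9, and 47.9 and 48.8 in ESC (log2 6.56 for ESC against day 9, SE 0.09, edgeR adjusted p = 4.3e-16). Myof stood at 133 and 138 CPM in ESC against 9.9 and 9.09 at day 9, and Ccdc80 at 54.7 and 54.4 against 4.02 and 4.85. Of the 4 targets called lower, Nt5e had the largest fall, from a mean of 74.5 CPM at day 9 to 2.28 in ESC (log2 -5.03, SE 0.07). Igfbp3 and Ptpn14 were also lower, with means of 71.3 and 279 CPM at day 9 and 16.6 and 56.1 in ESC. The summed fibroblast markers over the same step were 161 to 171 CPM at day 9 and 4649 to 4804 in ESC, with 14 of the 15 called higher, and their part in the higher target levels was not tested.

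The kinase cascade upstream of YAP and TAZ, a list of 13 genes, held a few strong single changes. Counts were 2 called higher and none lower at day 3 against MEF, 1 lower at day 6 against day 3, none at day 9 against day 6, 1 higher and 2 lower in ESC against day 9, and 2 higher and 4 lower in ESC against MEF. Wwc1, encoding the scaffold KIBRA, had the largest rise, from 11.4 and 8.93 CPM in MEF to 84.5 and 87.6 at day 3 (log2 3.09, SE 0.07, edgeR adjusted p = 4.6e-14). It was at 172 and 176 CPM at day 9 and 42.7 and 43.2 in ESC, a fall of 4.05-fold. Nf2, encoding the scaffold Merlin and named after its values were seen, was the other gene called higher at day 3, from 86.5 and 88.7 to 185 and 186 CPM. Lats1, the paralogous kinase of Lats2, was at 85.5 and 81.6 CPM in MEF and 28.4 and 25.7 in ESC (log2 -1.63, SE 0.06, edgeR adjusted p = 8.4e-12). Taok3, an upstream kinase, was the gene called lower at day 6, from 30.5 and 28.1 to 12.6 and 11.7 CPM.

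Junction and polarity regulators of the pathway, 16 genes, gave 1 higher and 3 lower calls at day 3 against MEF, 1 and 3 at day 6 against day 3, 1 and 1 at day 9 against day 6, 1 and 5 in ESC against day 9, and 2 and 6 in ESC against MEF. Fat4, a giant protocadherin, had the largest fall at day 3 against MEF, from 159.6 and 162 CPM to 7.46 and 7.39 (log2 -4.43, SE 0.06, edgeR adjusted p = 9.2e-17). It also had the largest fall in ESC against MEF (log2 -4.99, SE 0.06), and its means were 0.357 CPM at day 6, 0.328 at day 9 and 5.03 in ESC. Its partner Dchs1, named after its values were seen, fell from 62.4 and 60.9 CPM in MEF to 23 and 24.3 at day 3. Amot, the relative of Amotl2, fell from 20.8 and 23.6 CPM at day 3 to 4.76 and 5.23 at day 6 (log2 -2.15, SE 0.10, edgeR adjusted p = 2.2e-10). Ptpn14, a phosphatase that binds YAP and is itself counted in both this list and the target list, rose from 114 and 109 to 265 and 283 CPM at day 3 and stood at 57.6 and 54.7 in ESC. Scrib, a basolateral polarity scaffold, had the largest rise in ESC against MEF among genes past the level minimum, from 56.1 and 49.3 to 106 and 112 CPM (log2 1.05, SE 0.05). Crb3, an apical polarity protein named after its values were seen, was at 0 CPM in both MEF libraries, 2.79 and 2.57 CPM at day 6 and 15.9 and 16.4 at day 9.

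Vestigial-like proteins compete with YAP and TAZ for TEAD. Of 4 Vgll genes, Vgll3 and Vgll4 passed the filter on low counts, while Vgll1 and Vgll2 had at most 8 reads in any library. Vgll3 was at 106 CPM in both MEF libraries, 85.5 and 86.1 at day 3, 37.5 and 33.4 at day 6, 23.3 and 22.4 at day 9, and 14.1 and 15.2 in ESC, and was called lower at day 6 (log2 -1.28, SE 0.05, edgeR adjusted p = 6.3e-11). Vgll4 was at 50.7 and 48.3 CPM in MEF, 34.3 in both day 9 libraries and 11.7 in both ESC libraries, a fall of 2.94-fold from day 9 to ESC (log2 -1.55, SE 0.06).

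**Figure D5:**
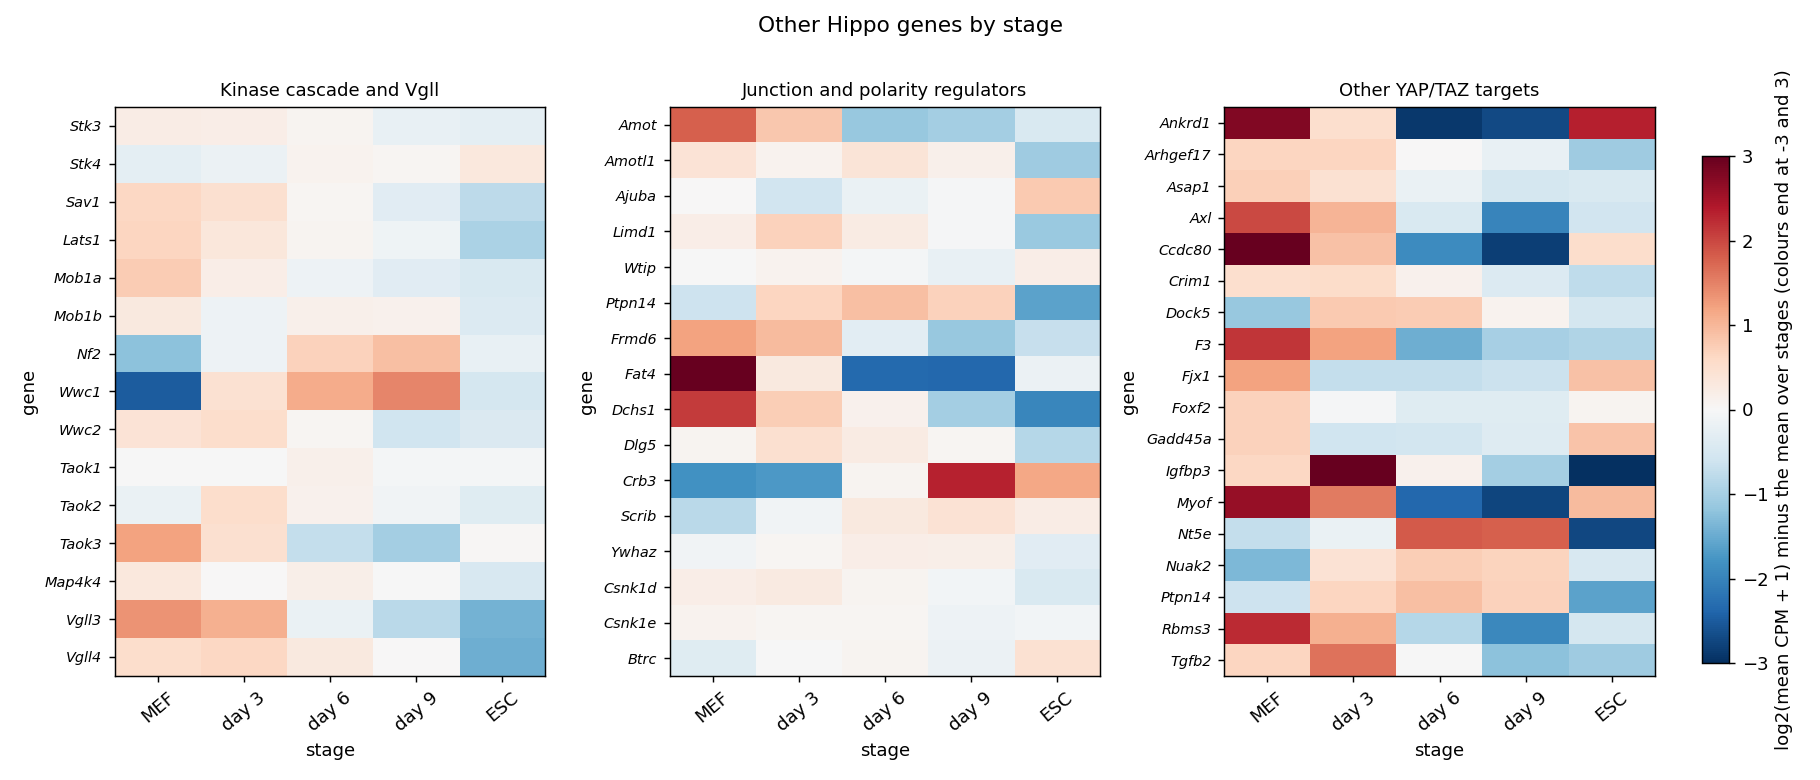
Mean level of the other pathway genes by stage, as log2(mean CPM + 1) minus the gene's mean over the 5 stages (red higher, blue lower, colours end at -3 and 3). Rows are the kinase cascade with Vgll3 and Vgll4 (left), junction and polarity regulators (middle) and other YAP and TAZ targets (right); Wwc1 is lowest in MEF, Fat4 highest there, and Ankrd1 is high in MEF and ESC.

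Transcript make-up was read from the deposited estimates, which single 50-base reads separate only in part. Yap1 had 10 models in the files, of which a model of 4115 bases held 51.2% to 72.8% of the gene's reads over the libraries and one of 4171 bases held 21.6% to 47.7%. Tead1 was mostly a model of 9480 bases, with 80.1% to 90.8% of reads. For Tead4, models of 3076 and 1718 bases held 62.4% to 71.7% and 27.8% to 35.9%. Wwtr1 was nearly all 1 model of 4697 bases (98.3% to 100% of reads), Ctgf mostly 1 of 2398 bases (89.1% to 95.9%), and Cyr61 had a single model of 2019 bases. Amotl2 was split over 14 models, with 49.3% to 59.1% of reads on one of 3475 bases.

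The genes whose course over the 10 libraries was nearest to each member differed in closeness. Likeness was measured as the root mean square difference of centred log2 CPM over the 10 libraries. Each member was compared with 9560 protein-coding genes, a description that carries no test and in which all genes share the libraries. For Yap1, Tm9sf2 (0.034) and Clasp1 (0.039) were nearest, but 999 genes lay within 0.2, since many genes vary little. For Wwtr1 the nearest were Col4a2 (0.077), a basement membrane collagen, and Cpd (0.087), with 26 genes within 0.2. Tead1 was nearest to Per1 (0.064) and Bcl10 (0.067), and Tead2 to Mta2 (0.074) and Ipo4 (0.076), but 400 and 422 genes lay within 0.2 of them. Tead3 was nearest to Bcl9l (0.154) and Osbpl5 (0.197), and Tead4 to Xkr5 (0.141) and Umps (0.193). Cyr61 was nearest to Fos (0.111) and Junb (0.176), both immediate early genes, with Fos at a mean of 2207 CPM in MEF, 1429 at day 3, 315 at day 6, 443 at day 9, and a mean of 300.5 CPM in ESC. Amotl2 was nearest to Anxa5 (0.142) and Sept8 (0.148), and Lats2 to Hdac7 (0.094) and Mbnl1 (0.13). Ctgf had no gene within 0.2, and its nearest were AI464131 (0.264) and Magi3 (0.273).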

How the data were processed

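Per the labels' protocols, RNA was extracted with TRIZOL and libraries were made with a stranded poly(A) kit and sequenced as single 50-base reads. The submitters' processing notes name Salmon 0.8.2 and the build mm10; the annotation release is not given in the sources used here. The authors deposited 1 table per library listing 109617 transcripts with an estimated count and TPM each, per the file headers. The deposited estimated counts carry no normalization. TPM, as deposited, divides by effective length and sums to 1 fixed total per library.

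Estimated counts were summed by the gene symbol and ID in the transcript names and rounded to whole numbers. The filterByExpr function of edgeR 4.0.16 (minimum count 10, minimum total 15; R 4.3.3) left 20165 genes. Libraries were scaled by TMM, and the quasi-likelihood test was fitted to all 10 libraries with 1 mean per group, with p-values adjusted by the Benjamini-Hochberg method over all genes tested. Genes were called at an adjusted p under 0.05 and a log2 fold change of 1 or more in either direction. The standard error (SE) divides the size of the log2 fold change by the root of edgeR's F. The common biological coefficient of variation was 3.75%.

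The members and gene lists were chosen with earlier results of these data known, so no list carries a test of its own. Besides the 10 members, the text names from each pathway list and comparison the called gene with the largest rise and with the largest fall that reached 20 CPM with groups that did not overlap, and for each member the 2 protein-coding genes nearest in course. Genes picked from the lists are all named, but their values are not given for every comparison that picked them. Coordinates are from GENCODE M21 (GRCm38), which held 98.8% of the gene IDs. Shares and ratios were computed from TPM summed over all models as designed, and, chosen after seeing the data, over models of at least 1000 bases. Alternatives were DESeq2 1.42.0, limma 3.58.1 on log2(TPM + 1) and log2(TPM + 0.1), other filters and scaling, fits to 2 groups, no fold minimum, a replicate block and leaving out each library. Same-numbered libraries did not deviate together (correlations -0.02 to 0.022), so the numbers were not taken as pairs. Other software was Python 3.11.15, numpy 2.4.6, pandas 2.3.3 and matplotlib 3.10.9.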

Additional observations from a re-analysis of the deposited data

How the results depend on the processing

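Over the 10 genes and 5 comparisons, 372 of 400 values under alternatives that kept the fold minimum had the direction and the call of the reported value, and 496 of 500 did with 1 library left out. The count of members called higher at day 3 against MEF was 2, and 1 with DESeq2, with at least 10 CPM in 2 libraries, with a fit to the 2 groups alone and with limma at either pseudocount. With 1 library left out it ranged from 1 to 2, the lower value without the first MEF or the first day 3 library. The gene lost was Ctgf, with log2 values of 0.89, 0.93, 0.95, 0.86 and 0.87 in those 5 fits and of 0.97 to 1.05 with a library left out. Without the fold minimum, the counts of members higher and lower were 4 and 5 at day 3 against MEF, 3 and 5 at day 9 against day 6, and 2 and 7 in ESC against day 9, and 2 were higher at day 6 against day 3. The share of all genes without the fold minimum was not counted, so these counts cannot be set against a general rate.

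Directions that turned were all of values short of 2-fold. With library size in place of TMM, they were Amotl2 at day 3 against MEF (0.14), Yap1 at day 6 against day 3 (0.04) and Tead2 in ESC against MEF (0.10). That scaling moved the median of all genes from 0.08 to 0.285 at day 3 against MEF and from 0.099 to 0.438 in ESC against MEF, and the call of Tead1 in the latter was lost at -0.79. With limma on log2(TPM + 1) and log2(TPM + 0.1), they were Lats2 at day 3 against MEF (-0.75 and -0.76) and at day 6 against day 3 (0.11 and 0.12), Yap1 at day 6 against day 3 (0.10 and 0.11), and Tead1 (-0.23 and -0.25) and Tead3 (-0.09 and -0.10) at day 9 against day 6. For ESC against day 9 they were Tead2 (0.13 with both), Tead3 (0.01 and 0.02), Tead4 (0.03 and 0.04) and Amotl2 (0.0085 and 0.0087). TPM sums weigh short transcript models, as the reads and TPM of Lats2 and Tead2 show. The limma fits also used TPM without TMM factors. For none of these genes was the cause of the turn tested. DESeq2 gave -0.0049 for Ctgf in ESC against MEF. With 1 library left out, Yap1 at day 6 against day 3 ranged from -0.06 to 0.0034 and Tead1 at day 9 against day 6 from -0.0081 to 0.04.

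With the replicate block, all 50 values (10 genes in 5 comparisons) kept their direction and stayed called or not called, with 2 higher and 1 lower at day 3 against MEF and 5 lower at day 6 against day 3. CPM moved 24 of 25 Tead shares and ratios of Yap1 to Wwtr1 by more than 1 SD and models of at least 1000 bases moved 23 of 25. With 2 libraries per stage, only differences well beyond the spread of a pair can be told, and Tead4 in MEF rests on 149 and 171 reads.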
